A study of Homo sapiens with 16 samples.

Results

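The nuclear-encoded subunits of respiratory complex I were taken as the genes whose symbol is NDUFA, NDUFAB, NDUFB, NDUFC, NDUFS or NDUFV followed by a number, with 37 genes reported here of the 43388 listed in the deposited table. Of these, 35 had a mean of at least 1 TPM (reads per gene length, scaled to the same total in every library) and were tested with 16122 genes in all. NDUFA6 was listed at 0 in every library, and NDUFA3 was above 0 only in HPLM/B27 replicate 2, at 0.287 TPM, taken as 1 read. The table holds 10 rows for the symbol NDUFA3 and 4 for NDUFA6, and every other of these rows was listed at 0, so the level of both genes is uncertain. NDUFA4 is kept under its symbol, although its product is a subunit of complex IV. The assembly factors (NDUFAF genes) are not among the 37.

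Cardiomyocytes derived from pluripotent stem cells (hPSC-CMs) of the wild-type human line WTC11, an established induced pluripotent line, were made with the GiWi protocol, which steers WNT signalling with small molecules. The Day 16 group had been kept in RPMI/B27, that is RPMI 1640 with its own higher glucose and the B27 supplement. From Day 16 the other cells were held until Day 30 in RPMI/B27, in RPMI_glcM/B27 (RPMI with 5 mM glucose and B27) or in HPLM/B27 (a medium composed after human plasma, whose glucose RPMI_glcM was set to match, with B27). Each of the 4 groups had 4 libraries of total RNA, numbered here as in the labels, each from its own well. Only 1 line was used and the labels name no separate differentiations, so p-values measure the spread between these wells. The questions were what the further time in RPMI/B27 changed, what the lower glucose changed, and what HPLM added to the lower glucose.

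Complex I oxidises NADH made by the tricarboxylic acid cycle and fatty acid oxidation, passes the electrons to ubiquinone and pumps protons across the mitochondrial inner membrane. Its matrix arm carries the flavin and the iron-sulphur clusters, and its membrane arm carries the proton channels, whose core is encoded by mitochondrial DNA. Accessory subunits encoded in the nucleus surround this core, and heart muscle is rich in the complex. The mitochondrially encoded ND genes were not analysed here.

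The promoters of several members hold matches to motifs of factors known for control of respiratory chain genes. RefSeq promoter windows (GRCh38.p14, 250 bases before to 50 after each gene's start) were found for 32 of the 37 members, and NDUFA4, NDUFB5, NDUFB9, NDUFC2 and NDUFS5 had no entry. The NRF1 motif GCGCNTGCG, searched on both strands like every motif here, was in the windows of 11 of the 32 members (34.4%) and of 9.01% of all 27305 symbols in that table. The YY1 motif AAGATGGCG was in those of 6 members (18.8%) against 2.13% of all symbols, and the SP1 motif GGGCGG in those of 21 (65.6%) against 48.3%. The ETS motif CCGGAAGT was in the windows of NDUFA13 and NDUFS1 (6.25% of members, 4.95% of all symbols), and the estrogen-related receptor motif TNAAGGTCA in that of NDUFB4 (3.13% and 1.17%). Below are the stretches before or at the start of NDUFA12, NDUFS3 and NDUFA8, which were called in the comparisons that follow, and of NDUFB4, the single member with both an NRF1 and an estrogen-related receptor match. Capitals mark the matched letters on the printed strand, which is the gene's own strand, and a match is no evidence of binding.
NDUFA12 (chr12:95003749-95003847, minus strand, NRF1): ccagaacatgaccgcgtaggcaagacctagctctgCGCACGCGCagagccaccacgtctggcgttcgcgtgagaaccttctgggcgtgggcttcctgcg
NDUFS3 (chr11:47578977-47579028, plus strand, SP1): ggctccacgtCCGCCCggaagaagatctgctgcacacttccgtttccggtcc
NDUFA8 (chr9:122159765-122159794, minus strand, overlapping NRF1 matches across the start): tgttgccggatGCGCATGCGCAGGCGCcgt
NDUFB4 (chr3:120596256-120596327, plus strand, NRF1 then estrogen-related receptor): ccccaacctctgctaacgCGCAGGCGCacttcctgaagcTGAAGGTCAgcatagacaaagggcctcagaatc

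The libraries held 7744768 to 16183655 reads assigned to genes, recovered from the steps in the TPM values, and 1 read in a gene of 1000 bases was worth 0.139 to 0.314 TPM. The mitochondrial rRNA gene RNR1 ranged between 49.5 and 29276 TPM, with 8 libraries above 1000 TPM (Day 16 replicate 4, Day 30 RPMI/B27 replicates 1, 3 and 4, RPMI_glcM/B27 replicates 3 and 4, and HPLM/B27 replicates 1 and 4). The counts of calls, the members' medians and changes of NDUFB9, NDUFS3, NDUFA12 and NDUFB10 were also read against it. For the calls of NDUFA8 and NDUFAB1 no fit with RNR1 is given. RNR2, the other mitochondrial rRNA gene, took 41.4 to 43.9% of all TPM at Day 16 and 41.0 to 48.1% in RPMI/B27 at Day 30. It took 42.0 to 45.5% in RPMI_glcM/B27 and 46.2 to 48.3% in HPLM/B27. In that order, 43.6 to 48.0%, 33.9 to 45.4%, 38.8 to 43.5% and 39.3 to 41.0% remained without mitochondrial rRNA, tRNA and abundant noncoding RNA. The TPM as deposited of every other gene depends on this remaining share. Summed TPM of 7 cardiomyocyte markers overlapped among the groups (11435 to 12821 at Day 16, 10739 to 14725 in RPMI/B27 at Day 30, 11878 to 13345 in RPMI_glcM/B27 and 10797 to 13139 in HPLM/B27). In the same order of groups, 8 fibroblast markers summed to 239 to 436, 151 to 299, 118 to 163 and 122 to 186 TPM, and 5 hepatic endoderm markers to 382 to 677, 289 to 522, 85.1 to 189 and 61.5 to 178 TPM. The 4 smooth muscle markers summed to 317 to 764, 199.5 to 892, 239 to 316 and 257 to 462 TPM, and 5 endothelial markers, almost all from KDR, to 42.3 to 54.5, 13.2 to 30.9, 16.1 to 25.0 and 19.0 to 30.9 TPM. Endothelial markers were thus lower in every Day 30 library than at Day 16, fibroblast markers lower in every library of RPMI_glcM/B27 and HPLM/B27 than at Day 16, and smooth muscle markers in every library of RPMI_glcM/B27. Hepatic endoderm markers were thus lower in every library of RPMI_glcM/B27 and HPLM/B27 than in RPMI/B27, where several members were higher, and the part of these markers in the results was not tested. In bulk RNA, fewer cells of a type and less RNA per cell cannot be told apart. MYH11 was at 0 in every library, so the smooth muscle sum came from ACTA2, CNN1 and TAGLN. DCN and THY1 of the fibroblast list averaged only 0.322 and 0.329 TPM. The sums are thus no measure of a cell type by themselves.

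Transcripts of the members were abundant but far from equal in level. Their median mean level over the 16 libraries was 45.0 TPM, against 7.42 TPM over all genes tested. NDUFA12 (256 TPM), NDUFA13 (251 TPM), NDUFS4 (170 TPM), NDUFS1 (166 TPM), NDUFB1 (109 TPM) and NDUFS5 (101 TPM) stood at or above 100 TPM. NDUFB5, NDUFA1, NDUFB9, NDUFB8, NDUFB10, NDUFAB1, NDUFV1, NDUFA4, NDUFB2, NDUFS3 and NDUFS8 lay between 94.3 and 50.1 TPM, in falling order. NDUFV2, NDUFC1, NDUFA5, NDUFA10, NDUFA8, NDUFB7, NDUFB3, NDUFS6 and NDUFA11 followed, from 45.0 down to 20.5 TPM. NDUFB11, NDUFB4, NDUFS7, NDUFV3, NDUFA9, NDUFA7 and NDUFB6 ran from 18.4 to 11.1 TPM, and NDUFC2 (8.52 TPM) and NDUFA2 (5.37 TPM) were lowest. The ranges over the 16 libraries overlapped in all 34 neighbouring pairs. These ranges pool the 4 groups, so a step could still be clear within each group. In every group the lowest NDUFA5 library was above the highest NDUFA10 library. These stood at 35.3 and 28.9 TPM at Day 16 and at 29.3 and 27.9 TPM in RPMI/B27 at Day 30. They stood at 45.2 and 30.7 TPM in RPMI_glcM/B27 and at 44.1 and 30.2 TPM in HPLM/B27.

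A level per length depends on the length used, and for part of the members the length behind the deposited TPM was not that of the canonical GENCODE transcript. It was above 2 times the canonical length in 8 tested members. In others the 2 lengths were equal, as for NDUFA13 (521 bases) and NDUFS3 (894 bases). Set on the length of the canonical GENCODE transcript, 7 members moved by more than 5 places in the order. NDUFS1 then stood at 51.2 TPM, NDUFV2 at 183 TPM, NDUFA11 at 105 TPM and NDUFS7 at 50.2 TPM. These values scale the deposited TPM by the 2 lengths, without a new count of reads or a new total. For NDUFS1 the canonical length of 11660 bases is above the 3603 bases behind the deposited TPM, so its canonical level may be too low. Within a gene, the ratio of TPM between libraries does not depend on that gene's own length. The fold changes of log2(TPM + 1) below were taken at the deposited lengths, and for low genes they vary with the length used.

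**Figure D1:**
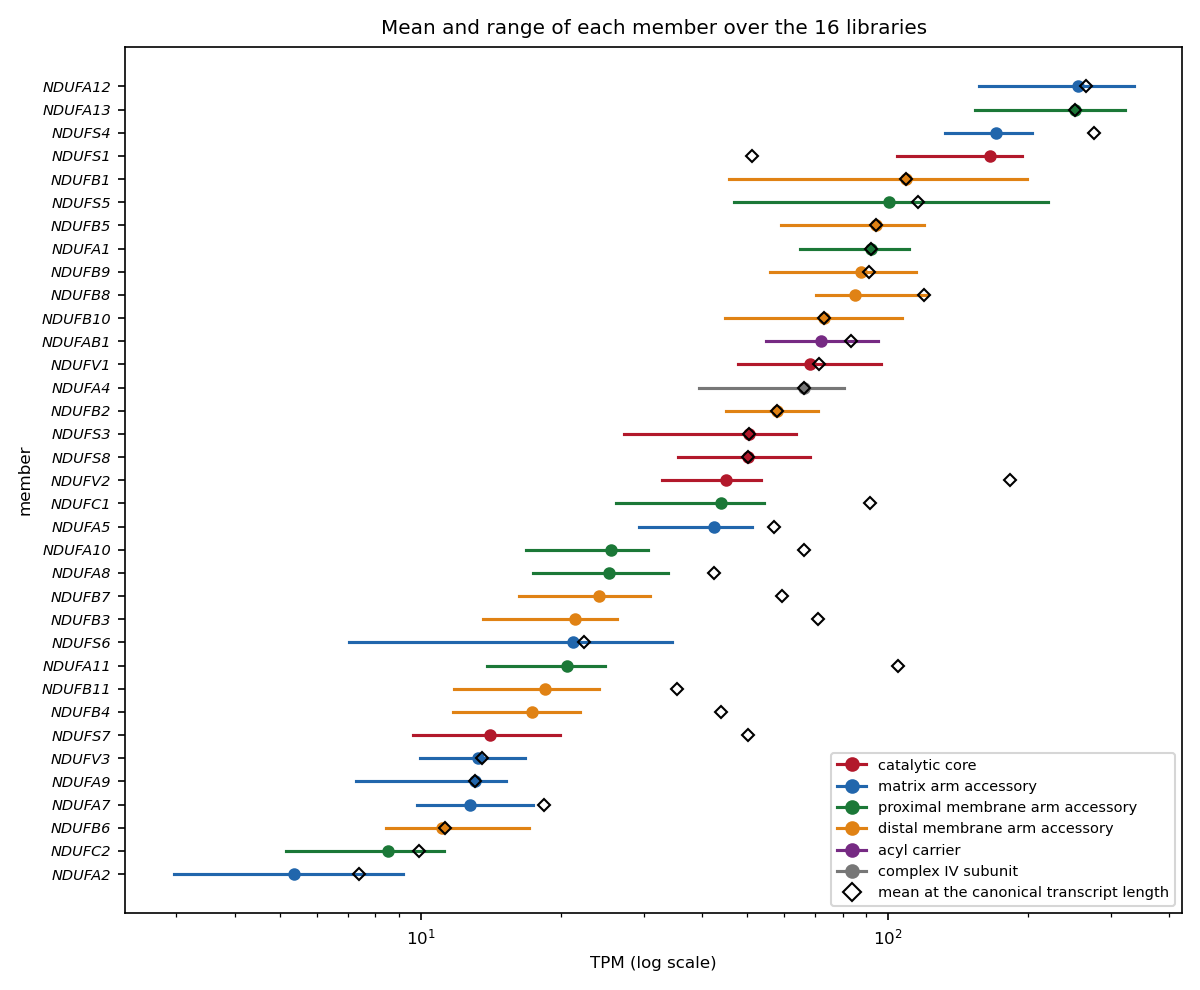
Level of each of the 35 tested members in TPM on a log axis, with dots for the mean over the 16 libraries, lines from the lowest to the highest library, colours for the member's place in the complex, and open diamonds for the mean at the canonical transcript length. NDUFA12 and NDUFA13 lead at 256 and 251 TPM, NDUFA2 is lowest at 5.37 TPM, and neighbouring ranges overlap throughout.

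Between Day 16 and Day 30 in RPMI/B27, 2 of the 35 members fell and none rose by limma on log2(TPM + 1) with Benjamini-Hochberg adjustment at 0.05. These were the core subunit NDUFS3 and the membrane arm subunit NDUFB9. Among all genes tested, 17.8% were called lower and 2.08% higher, so the share of members called lower (5.71%) was below that background. The members' median log2 fold change was -0.14, against -0.28 over all genes tested. Dividing each library by its median-of-ratios factor, which sets the middle gene to no change, moved the median of all genes by more than 0.1 in every comparison with Day 16, to about 0. On that rescaled TPM the members' median was 0.18, NDUFS4 and NDUFA8 were called higher and NDUFS3 lower, with 8.62% and 8.91% of all genes called higher and lower. On TPM as deposited, every Day 30 library was below every Day 16 library in 3 members (16.2% of all genes) and above in 0 (1.72%). After rescaling this direction turned, with 3 members above and 0 below. No share of all genes is given for such counts on rescaled TPM, here or below.

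In RPMI_glcM/B27 at Day 30, 4 members rose against Day 16 and none fell: NDUFA8, NDUFB9, NDUFA12 and NDUFB10. Of all genes tested, 3.34% were called higher and 17.8% lower. Over the members the median log2 fold change was 0.13, against -0.22 over all genes, and 29 of the 35 members had a positive value. On rescaled TPM 17 members rose and none fell, where 13.4% of all genes were called higher and 14.2% lower, the members' median was 0.38, and all 35 values were positive. NDUFB10 did not pass on that scale, where its change was larger but less precise (0.82 ± 0.30, adjusted p = 0.0557, limma). All wells lay above those of Day 16 in 5 members (4.24% of all genes) and below in 0 (25.9%) on TPM as deposited. After rescaling they lay above in 17 members and below in 0.

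In HPLM/B27 the calls against the same Day 16 libraries were likewise all upward: NDUFA8, NDUFB9, NDUFAB1 and NDUFA12 rose, with 3% of all genes called higher and 22.4% lower. The members' median log2 fold change was 0.08, beside -0.29 over all genes, and 25 of 35 values were positive. On rescaled TPM 20 members rose and none fell (background 12.9% higher and 12.5% lower), with a median of 0.39. All wells lay above those of Day 16 in 4 members (3.77% of all genes) and below in 0 (32.1%) on TPM as deposited. After rescaling they lay above in 24 members and below in 0. Both comparisons use the same Day 16 wells, so their calls are not independent of each other.

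At Day 30, RPMI_glcM/B27 stood above RPMI/B27 in 4 members, NDUFB9, NDUFS3, NDUFA12 and NDUFA8, and below it in none. The background was 1.36% of all genes higher and 0.837% lower. Across the members the median log2 fold change was 0.27 and 30 values were positive, against a median of 0.05 over all genes. Rescaled, 9 members were higher and none lower, beside 6.17% and 5.89% of all genes, and the members' median was 0.20. The wells of the 2 media did not overlap in 8 members, each higher in RPMI_glcM/B27, where 4.4% of all genes were so placed and 2.6% the other way. After rescaling they did not overlap in 9 members, each again higher in RPMI_glcM/B27.

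HPLM/B27 was above RPMI/B27 at Day 30 in NDUFB9, NDUFS3 and NDUFA12, and no member was called lower, with 1.51% of all genes higher and 0.893% lower. The members' median was 0.24, beside -0.02 over all genes, and 29 of 35 values were positive. Rescaled, 11 members were higher and none lower (background 7.05% and 5.87%). In 8 members each HPLM/B27 well was above each RPMI/B27 well (4.13% of all genes), and in 0 below (3.17%). After rescaling these counts were 7 and 0. The RPMI/B27 libraries are shared with the preceding comparison.

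Between HPLM/B27 and RPMI_glcM/B27 no member was called by limma, and none had an unadjusted p under 0.05. The rescaled values gave 0 calls with 1 unadjusted p under 0.05, and limma-voom on the recovered reads 0 calls with 1. Few genes were called at all here (0.0496% higher in HPLM/B27 and 0.0186% lower, and 0.999% and 0.626% after rescaling). The members' median log2 fold change was -0.04, and the values ran from -0.29 for NDUFS7 to 0.13 for NDUFB6. All HPLM/B27 wells lay above those of RPMI_glcM/B27 in 0 members (2.41% of all genes) and below in 0 (4.86%) on TPM as deposited. After rescaling these counts were 1 and 0, and the 1 member was NDUFS1. Its lowest HPLM/B27 library stood at 181 rescaled TPM, and its highest RPMI_glcM/B27 library at 174. The median standard error of a member was 0.15, so small differences were not detectable with 4 wells a group. For NDUFB9 the 95% interval of the difference was -0.21 to 0.18, and for NDUFS6, the least precise of the members named for this comparison, -1.09 to 0.54.

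**Figure D2:**
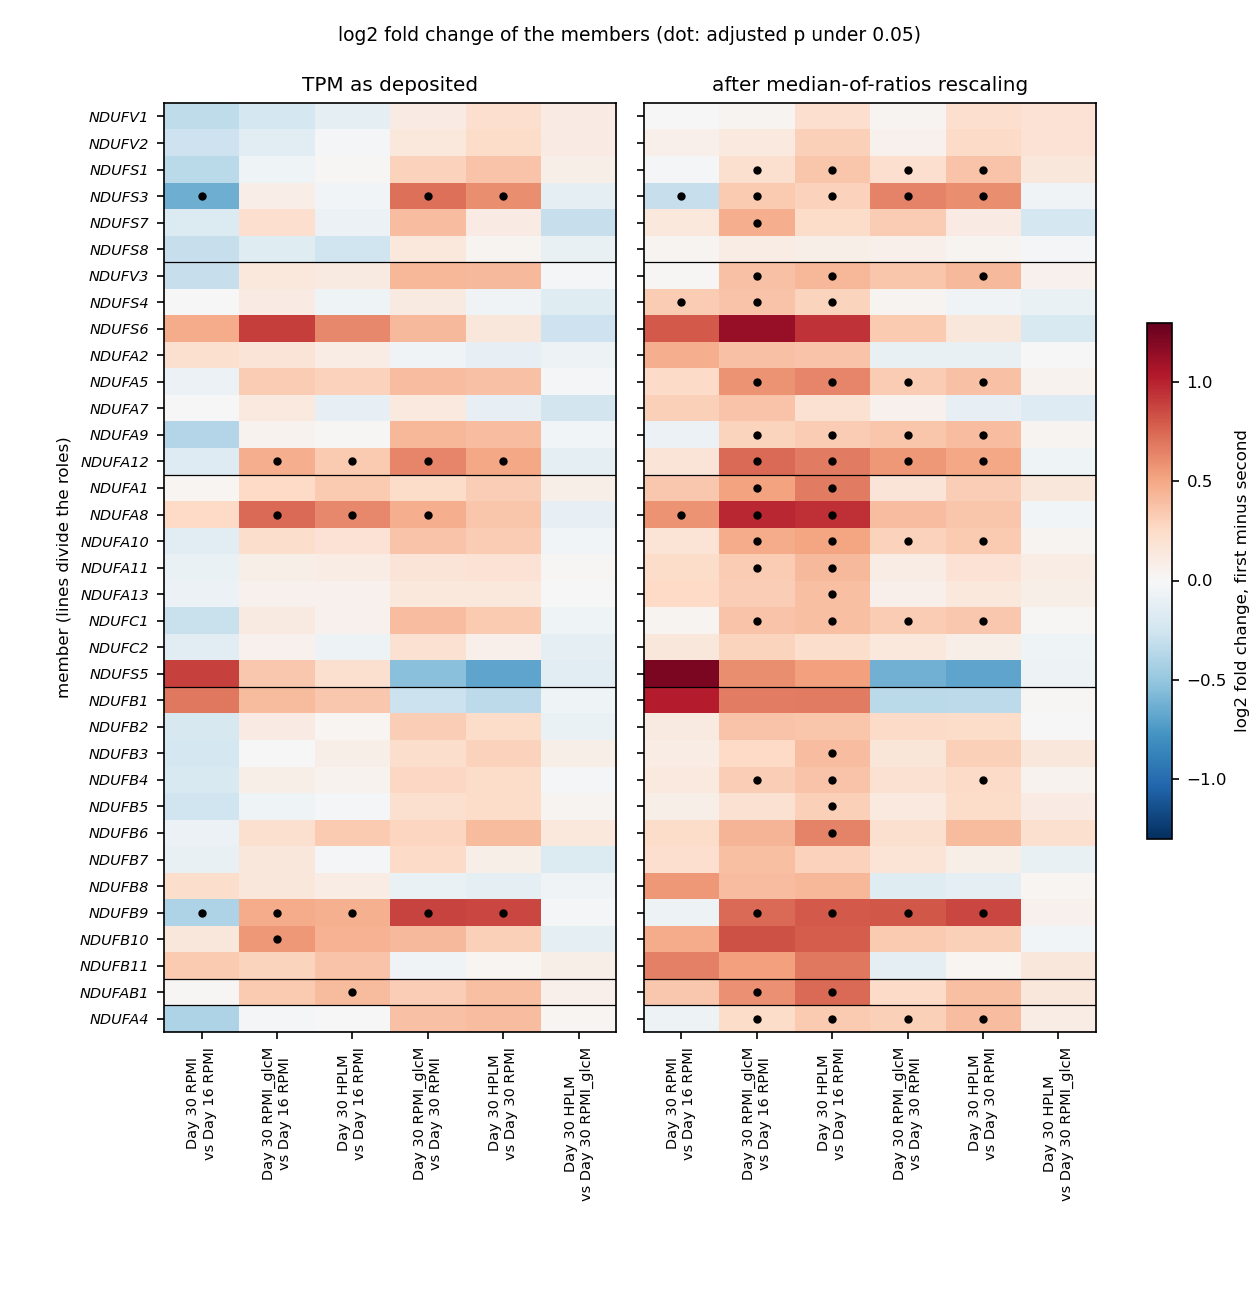
Log2 fold change of each tested member (rows, lines divide the roles) in the 6 comparisons (columns), from TPM as deposited on the left and after median-of-ratios rescaling on the right, with a dot where the adjusted p of limma was under 0.05. NDUFB9 carries a dot in 5 columns on the left, NDUFA12 in 4, and the column of HPLM/B27 against RPMI_glcM/B27 carries none on either side.

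The catalytic core of the matrix arm includes NDUFV1, which binds NADH and the flavin, NDUFV2 and NDUFS1, which carry iron-sulphur clusters, NDUFS7 near the ubiquinone site, NDUFS8, and NDUFS3 beside them. Of these 6 genes, 1 fell from Day 16 to Day 30 in RPMI/B27, and 1 was higher in each lower-glucose medium than in RPMI/B27 at Day 30. NDUFS3 stood at 54.7, 62.3, 56.5 and 46.4 TPM at Day 16, at 40.2, 36.6, 36.9 and 27.3 TPM in RPMI/B27 at Day 30, at 59.2, 63.5, 55.9 and 53.8 TPM in RPMI_glcM/B27, and at 47.3, 56.0, 53.2 and 57.5 TPM in HPLM/B27. All 4 libraries of RPMI/B27 at Day 30 were below all 12 others. The log2 fold change was -0.63 ± 0.13 (SE) from Day 16 to Day 30 in RPMI/B27 (adjusted p = 0.00328, limma), and RPMI_glcM/B27 and HPLM/B27 exceeded RPMI/B27 by 0.72 ± 0.13 (adjusted p = 0.00702) and 0.60 ± 0.13 (adjusted p = 0.0183). The last call was lost without HPLM/B27 replicate 2, 3 or 4 (adjusted p 0.0605 to 0.0659). On rescaled TPM these were -0.30, 0.64 and 0.60, all past the threshold, and NDUFS3 then also rose against Day 16 in RPMI_glcM/B27 (0.34) and HPLM/B27 (0.30), where it stood at 0.08 and -0.03 on TPM as deposited.

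NDUFS1, the highest core transcript at the deposited lengths though not at the canonical ones, held 174, 190, 182 and 156 TPM at Day 16, 172, 167, 117 and 105 TPM in RPMI/B27 at Day 30, 184, 173, 169 and 149 TPM in RPMI_glcM/B27, and 162, 194, 186 and 170 TPM in HPLM/B27. It passed in no comparison of TPM as deposited, where its groups overlapped. After rescaling its wells drew together, at 148 ± 3.49 (SD, n = 4), 146 ± 3.01, 171 ± 3.32 and 189 ± 6.28 rescaled TPM in the same order of groups. RPMI_glcM/B27 and HPLM/B27 then exceeded RPMI/B27 at Day 30 by 0.22 (adjusted p = 0.0043, limma) and 0.37 (adjusted p = 9.27e-05). Each HPLM/B27 well was also above each RPMI_glcM/B27 well on rescaled TPM, but that comparison was not called.

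NDUFS7, the lowest of the core genes at the deposited lengths but level with NDUFS3, NDUFS8 and NDUFS1 at the canonical ones, was at 14.1, 16.3, 14.3 and 11.6 TPM at Day 16, 15.4, 13.5, 9.64 and 11.1 TPM in RPMI/B27 at Day 30, 15.8, 16.2, 19.9 and 14.5 TPM in RPMI_glcM/B27, and 13.7, 12.6, 15.0 and 11.8 TPM in HPLM/B27. The 4 groups overlapped. HPLM/B27 differed from RPMI_glcM/B27 by -0.29 ± 0.15 (95% interval -0.61 to 0.02, adjusted p = 0.812, limma). NDUFV1, NDUFV2 and NDUFS8 were called in no comparison on either scale.

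Accessory subunits of the matrix arm include NDUFA12, which takes its place late in assembly, NDUFS4 and NDUFS6, which hold the NADH-oxidising module, and NDUFA2, NDUFA5, NDUFA7, NDUFA9 and NDUFV3. NDUFA12 (gene at chr12:94895297-95003748 in GENCODE, minus strand) was the 1 of 8 tested that was called on TPM as deposited. It stood at 216, 214, 241 and 226 TPM at Day 16, at 211, 220, 218 and 157 TPM in RPMI/B27 at Day 30, at 336, 309, 307 and 292 TPM in RPMI_glcM/B27, and at 245, 305, 282 and 307 TPM in HPLM/B27. Every library of the lower-glucose media was above every library of the other groups, and RPMI/B27 replicate 4 stood apart at the bottom. Against RPMI/B27 at Day 30 the log2 fold change was 0.63 ± 0.11 in RPMI_glcM/B27 (adjusted p = 0.00809, limma) and 0.50 ± 0.11 in HPLM/B27 (adjusted p = 0.0282), the latter lost without HPLM/B27 replicate 2, 3 or 4 (adjusted p 0.0837 to 0.0977). Against Day 16 it was 0.47 ± 0.11 (adjusted p = 0.00797) and 0.34 ± 0.11 (adjusted p = 0.0393), and the last of these was lost when any 1 of the 8 libraries but HPLM/B27 replicate 1 was left out (adjusted p 0.0535 to 0.111).

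NDUFS6, a small zinc-binding subunit, varied widely between wells of a group. It held 13.1, 9.60, 7.04 and 34.5 TPM at Day 16, 15.0, 12.5, 25.5 and 27.2 TPM in RPMI/B27 at Day 30, 16.5, 23.0, 34.0 and 34.0 TPM in RPMI_glcM/B27, and 26.5, 18.2, 14.9 and 27.8 TPM in HPLM/B27. All groups overlapped and no comparison was called. Its fold change in RPMI_glcM/B27 against Day 16 was the largest positive one of any member there, 0.90 ± 0.39, with an adjusted p of 0.111 (limma).

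NDUFA2 stood at 5.35, 3.07, 4.92 and 5.84 TPM at Day 16, 9.15, 6.82, 2.96 and 4.92 TPM in RPMI/B27 at Day 30, 4.21, 5.11, 6.34 and 6.12 TPM in RPMI_glcM/B27, and 4.69, 3.22, 6.30 and 6.86 TPM in HPLM/B27. These levels rest on 11 to 33 reads a library, and no difference between groups was detectable at that depth. NDUFA5 (38.1 ± 1.98, 36.6 ± 7.77, 48.0 ± 2.47 and 47.2 ± 3.33 TPM, SD, n = 4) and NDUFA9 (13.7 ± 0.543, 10.5 ± 2.47, 14.2 ± 1.40 and 13.9 ± 1.22 TPM) passed on rescaled TPM in the lower-glucose media against both other groups, and in no comparison of TPM as deposited. NDUFS4 rose after rescaling in all 3 Day 30 groups against Day 16 (0.33, 0.37 and 0.29), while its deposited TPM gave 0.00, 0.11 and -0.05.

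In the proximal part of the membrane arm the accessory subunits are NDUFA1, NDUFA8, NDUFA10, NDUFA11, NDUFA13, NDUFC1, NDUFC2 and NDUFS5. NDUFA8, a cysteine-rich protein of the intermembrane face (gene at chr9:122144058-122159779, minus strand), held 18.3, 17.7, 20.3 and 17.4 TPM at Day 16, 28.4, 20.7, 20.3 and 20.6 TPM in RPMI/B27 at Day 30, 29.7, 32.9, 28.8 and 33.9 TPM in RPMI_glcM/B27, and 29.0, 27.8, 27.7 and 31.1 TPM in HPLM/B27. The lower-glucose libraries were all above those of Day 16, and RPMI/B27 replicate 1 lay among HPLM/B27 while its other 3 replicates were close to Day 16. Against Day 16 it rose by 0.73 ± 0.12 on the log2 scale in RPMI_glcM/B27 (adjusted p = 0.000375, limma) and by 0.62 ± 0.12 in HPLM/B27 (adjusted p = 0.00137). RPMI_glcM/B27 exceeded RPMI/B27 at Day 30 by 0.47 ± 0.12 (adjusted p = 0.0463), a call that was lost after rescaling (0.40, adjusted p = 0.0674) and when any 1 of the 8 libraries but RPMI/B27 replicate 1 was left out (adjusted p 0.0703 to 0.144).

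NDUFA1, a small membrane protein encoded on the X chromosome (chrX:119871832-119876662, plus strand), stood at 66.9, 91.9, 88.1 and 82.4 TPM at Day 16, at 102, 93.9, 76.7 and 64.8 TPM in RPMI/B27 at Day 30, at 90.5, 94.1, 108 and 101 TPM in RPMI_glcM/B27, and at 106, 109, 88.9 and 111 TPM in HPLM/B27. The groups overlapped in TPM as deposited, and no comparison was called. Against Day 16 the log2 fold change was 0.26 ± 0.14 in RPMI_glcM/B27 (adjusted p = 0.203, limma) and 0.34 ± 0.14 in HPLM/B27 (adjusted p = 0.0878). On rescaled TPM it rose by 0.52 (adjusted p = 0.00461) and 0.67 (adjusted p = 0.000778), with every library above those of Day 16. At Day 30 no medium was called against another on either scale.

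NDUFA13, the highest of the proximal genes, was at 242, 234, 263 and 251 TPM at Day 16, 278, 268, 262 and 154 TPM in RPMI/B27 at Day 30, 322, 263, 255 and 204 TPM in RPMI_glcM/B27, and 239, 277, 252 and 260 TPM in HPLM/B27. NDUFC2, the lowest, was at 8.52, 7.81, 8.70 and 9.61 TPM at Day 16, 10.8, 10.4, 6.06 and 5.15 TPM in RPMI/B27, 9.53, 9.82, 8.84 and 7.90 TPM in RPMI_glcM/B27, and 7.55, 11.2, 7.30 and 7.18 TPM in HPLM/B27. Both overlapped among all groups, and neither was called on TPM as deposited, while NDUFA13 passed in HPLM/B27 against Day 16 on rescaled TPM. NDUFA10, which resembles a nucleoside kinase, was called on rescaled TPM in the lower-glucose media against both other groups, by 0.30 to 0.51 on the log2 scale (adjusted p 2.4e-05 to 0.00554, limma). Its TPM as deposited, 24.2 ± 3.31, 22.2 ± 5.82, 28.3 ± 2.15 and 27.6 ± 2.68 (SD, n = 4), gave no call.

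The distal part of the membrane arm holds NDUFB1 to NDUFB11. NDUFB9 binds an acyl carrier protein there and was the member called most often, in 5 of 6 comparisons. It held 83.9, 67.3, 77.5 and 80.1 TPM at Day 16, 59.9, 56.0, 59.4 and 57.3 TPM in RPMI/B27 at Day 30, 107, 105, 106 and 114 TPM in RPMI_glcM/B27, and 96.7, 115, 103 and 113 TPM in HPLM/B27. Day 30 RPMI/B27, Day 16 and the lower-glucose media thus formed 3 levels with no overlap between them, while RPMI_glcM/B27 and HPLM/B27 overlapped. RPMI_glcM/B27 exceeded RPMI/B27 at Day 30 by 0.88 ± 0.09 on the log2 scale (adjusted p = 8.4e-05, limma), and HPLM/B27 by 0.86 ± 0.09 (adjusted p = 8.96e-05). Against Day 16 the values were -0.40 ± 0.09 in RPMI/B27 (adjusted p = 0.00858), 0.48 ± 0.09 in RPMI_glcM/B27 (adjusted p = 0.00181) and 0.47 ± 0.09 in HPLM/B27 (adjusted p = 0.00227). After rescaling the fall in RPMI/B27 was -0.07 (adjusted p = 0.827), and the 4 increases were 0.74 to 0.87, all past the threshold.

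NDUFB10, another cysteine-rich subunit, was at 70.8, 44.7, 57.0 and 61.8 TPM at Day 16, 46.8, 54.4, 88.0 and 75.2 TPM in RPMI/B27 at Day 30, 78.8, 80.2, 80.6 and 107 TPM in RPMI_glcM/B27, and 97.5, 76.1, 68.1 and 78.8 TPM in HPLM/B27. RPMI_glcM/B27 lay above Day 16 in every library, and RPMI/B27 spanned both. The rise in RPMI_glcM/B27 was 0.56 ± 0.19 (adjusted p = 0.0448, limma). The call was lost with RNR1 as a covariate (0.40, adjusted p = 0.0997) and when any 1 of the 8 libraries but Day 16 replicate 1 was left out (adjusted p 0.0561 to 0.148).

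NDUFB1, the highest distal transcript at the deposited lengths (NDUFB8 stood above it at the canonical ones), held 77.9, 45.7, 74.5 and 148 TPM at Day 16, 95.4, 83.9, 199 and 169 TPM in RPMI/B27 at Day 30, 75.2, 91.7, 113 and 158 TPM in RPMI_glcM/B27, and 144, 76.8, 75.3 and 124 TPM in HPLM/B27. NDUFB6, the lowest, held 9.58, 8.64, 10.9 and 11.0 TPM, then 8.45, 10.1, 9.33 and 9.91 TPM, 10.3, 10.7, 15.7 and 10.6 TPM, and 17.1, 12.3, 10.9 and 12.0 TPM in the same order of groups. Wells of a group differed more than the groups did for NDUFB1, and neither gene was called on TPM as deposited. NDUFB6 was called higher in HPLM/B27 than at Day 16 on rescaled TPM, as were NDUFB3, NDUFB4, NDUFB5 and NDUFB9 of the distal genes. NDUFB2, NDUFB7, NDUFB8 and NDUFB11 were called in no comparison on either scale.

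NDUFAB1 is the mitochondrial acyl carrier protein, which sits in complex I and also serves fatty acid and lipoate synthesis in the matrix. It was at 55.0, 55.9, 63.6 and 75.7 TPM at Day 16, 66.2, 56.1, 62.8 and 66.6 TPM in RPMI/B27 at Day 30, 68.8, 85.9, 79.3 and 81.6 TPM in RPMI_glcM/B27, and 95.1, 75.0, 81.3 and 79.9 TPM in HPLM/B27. Day 16 replicate 4 lay just above the lowest HPLM/B27 library, so those groups overlapped, yet the rise of 0.41 ± 0.12 in HPLM/B27 passed (adjusted p = 0.0214, limma), though not without Day 16 replicate 1 or 2 or HPLM/B27 replicate 1 (adjusted p 0.0663 to 0.0774). RPMI_glcM/B27 differed from Day 16 by 0.34 ± 0.12 (adjusted p = 0.0553).

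NDUFA4, the complex IV subunit, stood at 71.0, 70.8, 72.6 and 66.3 TPM at Day 16, 68.0, 66.3, 44.0 and 39.4 TPM in RPMI/B27 at Day 30, 74.2, 67.1, 65.7 and 69.8 TPM in RPMI_glcM/B27, and 61.8, 80.4, 77.3 and 63.6 TPM in HPLM/B27. The lowest libraries were RPMI/B27 replicates 3 and 4, the ones of highest RNR1. It was called in no comparison of TPM as deposited, and on rescaled TPM it was higher in the lower-glucose media than in both other groups.

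**Figure D3:**
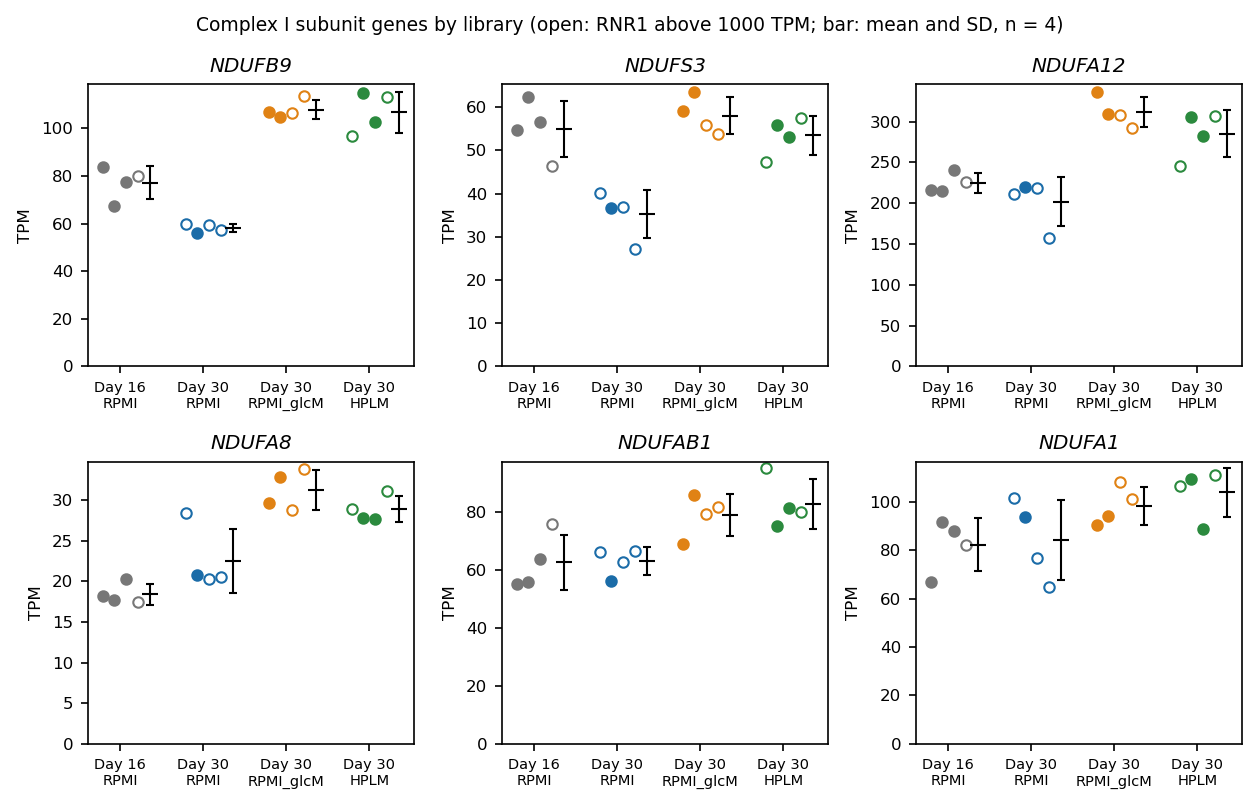
TPM of 6 members in each library by group (linear axes from 0), with open circles for libraries above 1000 TPM of RNR1 and a bar for the mean and SD of the 4 wells beside each group. NDUFB9 lies between 56.0 and 59.9 TPM in RPMI/B27 at Day 30 and between 96.7 and 115 TPM in RPMI_glcM/B27 and HPLM/B27, whereas NDUFA1 overlaps among all groups.

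Over all roles, 6 members were called in at least 1 comparison of TPM as deposited and 29 in none, where 35.8% of all genes were called in at least 1, in either direction. On rescaled TPM 21 members were called in at least 1, beside 41.7% of all genes. By place in the complex the calls in RPMI_glcM/B27 against Day 16 on rescaled TPM were 3 of 6 core genes, 5 of 8 of the matrix arm, 5 of 8 of the proximal and 2 of 11 of the distal membrane arm, all upward, where 13.4% of all genes were called higher. In HPLM/B27 they were 2, 5, 6 and 5 in the same order (12.9% of all genes). No test was made between the roles.

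Each gene's log2(TPM + 1) was centred on its mean over the 16 libraries, and per library the median over the members minus the median over all genes tested was -0.40 to -0.09 at Day 16 and -0.20 to 0.02 in RPMI/B27 at Day 30. It was 0.06 to 0.29 in RPMI_glcM/B27 and 0.12 to 0.24 in HPLM/B27. These 2 groups lay above both RPMI/B27 groups in every library, and overlapped each other. Day 16 and Day 30 in RPMI/B27 overlapped as well.

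Part of the spread between wells followed RNR1. NDUFS5, a cysteine-rich proximal subunit, held 86.3 to 220 TPM in the 8 libraries above 1000 TPM of RNR1 and 46.8 to 69.3 TPM in the 8 others. NDUFB1 held 95.4 to 199 TPM and 45.7 to 91.7 TPM, again with no overlap. The other 33 members overlapped between the sides, and of all genes 0.0496%, RNR1 itself included, were higher in every library above the limit and 0.174% lower. NDUFS6 (15.0 to 34.5 and 7.04 to 23.0 TPM) leaned the same way and NDUFB5 (59.0 to 106 and 95.6 to 120 TPM) the opposite way, both with overlap. Further members leaned too. Correlation with RNR1 within groups ran from -0.87 (NDUFB5) to 0.95 (NDUFS5). It was -0.81 for NDUFS1, -0.80 for NDUFA10 and -0.68 for NDUFS3, and 0.67 for NDUFAB1 and 0.65 for NDUFB10. For NDUFV2 (-0.03) and NDUFA7 (-0.01) it was near 0. All 4 groups contributed libraries to each side, but unevenly. Above the limit were 1 library of Day 16, 3 of RPMI/B27 at Day 30, 2 of RPMI_glcM/B27 and 2 of HPLM/B27. In every group replicate 4 was above it and replicate 2 under it. For these genes wells of the same group thus differed too, and RNR1, replicate number and medium cannot be fully told apart.

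NDUFB9 was also averaged by group within each side of the limit, where a group held only 1 to 3 libraries. In the libraries above 1000 TPM of RNR1 it averaged 80.1 TPM at Day 16 (1 library), 58.9 TPM in RPMI/B27 at Day 30 (3 libraries), 110 TPM in RPMI_glcM/B27 and 105 TPM in HPLM/B27. In the others it averaged 76.2 TPM (3 libraries), 56.0 TPM (1 library), 106 TPM and 109 TPM. NDUFS3 averaged 46.4, 34.8, 54.9 and 52.4 TPM above and 57.8, 36.6, 61.3 and 54.6 TPM under the limit, and NDUFA12 226, 196, 300 and 276 TPM above and 224, 220, 323 and 294 TPM under it. With RNR1 as a covariate, the increases of these 3 genes in RPMI_glcM/B27 and HPLM/B27 over RPMI/B27 at Day 30 passed in limma (adjusted p 5.34e-05 to 0.0197). The groups were uneven in RNR1, so this fit does not fully part RNR1 from the medium.

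**Figure D4:**
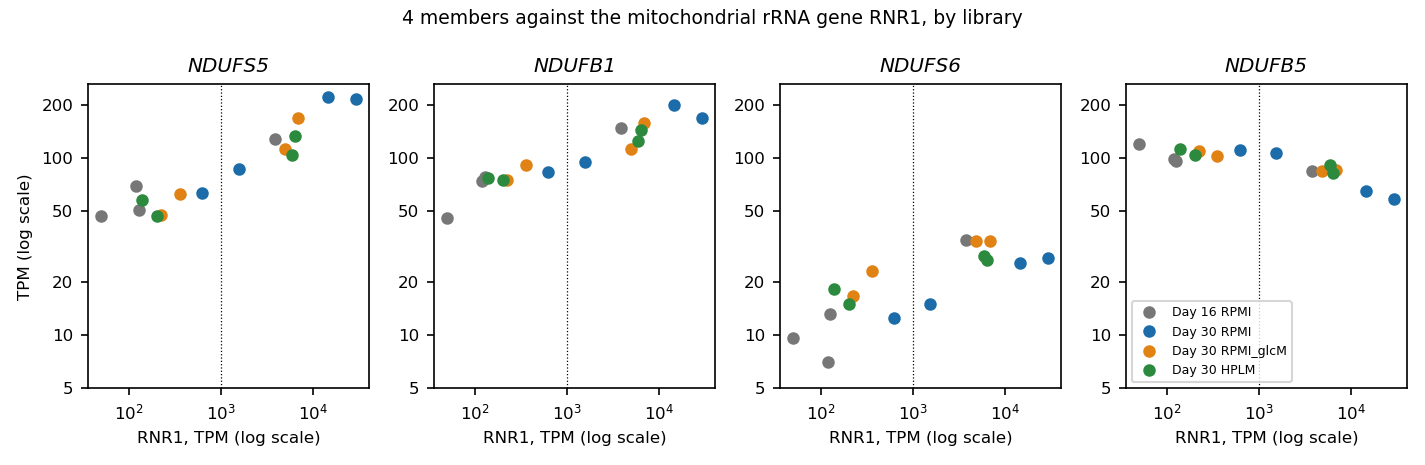
TPM of NDUFS5, NDUFB1, NDUFS6 and NDUFB5 against TPM of the mitochondrial rRNA gene RNR1 in the 16 libraries, both axes on a log scale, coloured by group, with a dotted line at 1000 TPM of RNR1. NDUFS5 and NDUFB1 are higher in all 8 libraries right of the line, and NDUFB5 falls from up to 120 TPM to 59.0 TPM.

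Of the other genes of the pathway, 18 assembly factors were listed and all were tested. NDUFAF4, which joins in building the ubiquinone module, was at 21.3, 18.5, 29.0 and 29.3 TPM on average in Day 16, Day 30 RPMI/B27, RPMI_glcM/B27 and HPLM/B27. On TPM as deposited it was the 1 assembly factor called higher in RPMI_glcM/B27 (0.63 ± 0.16, adjusted p = 0.0448, limma) and in HPLM/B27 (0.65 ± 0.16, adjusted p = 0.0366) than in RPMI/B27 at Day 30. Against Day 16, ACAD9, a relative of the acyl-CoA dehydrogenases, fell in RPMI/B27 (by 0.57 ± 0.17, adjusted p = 0.0285, and -0.27 with adjusted p = 0.0967 after rescaling), TIMMDC1 fell in RPMI_glcM/B27 (by 0.48 ± 0.12, adjusted p = 0.00791), and NDUFAF4 rose in HPLM/B27 (0.46 ± 0.16, adjusted p = 0.0403). The remaining assembly factors were not called on TPM as deposited, and the median log2 fold change of all 18 ran from -0.20 to 0.07 over the 6 comparisons. On rescaled TPM 5 rose and 1 fell in RPMI_glcM/B27 against Day 16, and 7 rose in HPLM/B27. Against RPMI/B27 at Day 30, 3 were then higher and 1, TIMMDC1, lower in RPMI_glcM/B27, and 6 were higher and none lower in HPLM/B27, with NDUFAF4 among the higher in both.

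The neighbouring complexes gave few calls too. Of the 4 genes of complex II, which feeds ubiquinone from succinate, SDHB was called, in HPLM/B27 over RPMI/B27 at Day 30 (0.63 ± 0.15, adjusted p = 0.0313, limma), and the list's median in that comparison was 0.51. Rescaled, 3 of the 4 were higher in each lower-glucose medium than in RPMI/B27 at Day 30 and than at Day 16. Of 9 complex III genes, UQCRB rose by 0.54 to 0.58 in all 4 comparisons of a lower-glucose medium with RPMI/B27 at Day 16 or Day 30 (adjusted p 0.000256 to 0.00447), and after rescaling the call of RPMI_glcM/B27 over RPMI/B27 at Day 30 was lost (0.46, adjusted p = 0.0883). Among 74 mitochondrial ribosomal protein genes tested, 7 and 6 were higher in RPMI_glcM/B27 and HPLM/B27 than in RPMI/B27 at Day 30 and none lower, with medians of 0.21 and 0.19 beside the members' 0.27 and 0.24. Cytosolic ribosomal protein genes (71 tested) had medians of 0.04 and -0.18 there.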

How the data were processed

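Total RNA libraries of 16 wells (4 groups of 4) were made by the authors with a stranded Takara SMARTer kit, aligned to hg38 with decoy sequences with STAR 2.5.3a and counted with featureCounts 2.0.3. The values deposited by the authors are TPM, in which read counts per length of gene sum to 1000000 in each library. The annotation, the lengths and the tool for TPM were not given in the sources used here. Values of a gene stood in whole-number ratios between libraries, and the smallest such numbers were taken as its reads for all 31047 genes above 0. Reads are thus known up to a common divisor within a gene. A gene above 0 in only 1 library was set at 1 read.

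Groups were taken from the sample titles. The series description names 3 wells per medium and the titles 4, and all 16 were used. Limma 3.58.1 (R 4.3.3, trend, two-sided) was fitted to log2(TPM + 1) over the 16122 genes averaging 1 TPM or more, with the 4 groups in 1 fit and Benjamini-Hochberg adjustment within each of 6 comparisons. A log2 fold change is on that scale and understates low genes. Median-of-ratios rescaling, RNR1 as a covariate, limma-voom on recovered reads (15423 genes), other filters and pseudocounts, a replicate block and leaving out libraries were alternatives. The scripts were tested on simulated data. The members and lists were chosen with earlier results of these data known, and 1 gene that meets the rule is not reported here. Every member is named at least once, and values in every library are given for NDUFA1, NDUFB9, the highest and lowest gene of each role by deposited TPM, and in each comparison the up to 5 called members of the largest change (2 where none was called). NDUFS5 and NDUFB5 were added after their values were seen, as were the fits that use RNR1 with rescaling, those without the 2 libraries of the highest RNR1, and levels at the canonical transcript length (GENCODE 44). Counting error is not the only error in these values, and reads carry no molecular identifiers.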

Additional observations from a re-analysis of the deposited data

Results flagged for a closer look

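In 8 of the 140 groups of 4 wells formed by the 35 tested members, 1 library lay far from the other 3 for the size of the group's range. Chance flags about 1 in 20 groups, which is 7 of 140. In RPMI/B27 at Day 30, replicate 4 was low for NDUFA12 (157 TPM, others 211 to 220) and NDUFA13 (154 TPM, others 262 to 278), replicate 1 was high for NDUFA8 (28.4 TPM, others 20.3 to 20.7), and replicate 3 was low for NDUFA7 (9.84 TPM, others 13.4 to 13.7). In RPMI_glcM/B27, replicate 3 was high for NDUFB6 (15.7 TPM, others 10.3 to 10.7) and replicate 4 for NDUFB10 (107 TPM, others 78.8 to 80.6). At Day 16, replicate 2 was high for NDUFB4 (21.1 TPM, others 15.7 to 16.6). In HPLM/B27, replicate 2 was high for NDUFC2 (11.2 TPM, others 7.18 to 7.55). Replicate 4 of RPMI/B27 had the highest RNR1 of all libraries, 29276 TPM.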

How the results depend on the processing

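Counts of members called are given for RPMI/B27 at Day 30, RPMI_glcM/B27 and HPLM/B27 against Day 16, then RPMI_glcM/B27 and HPLM/B27 against RPMI/B27 at Day 30 (2, 4, 4, 4 and 3 as reported). They were 3, 17, 20, 9 and 11 after median-of-ratios rescaling, 4, 20, 22, 9 and 11 by limma-voom on recovered reads, 3, 16, 17, 14 and 16 after rescaling with RNR1 as a covariate, 1, 22, 22, 11 and 15 after rescaling without the 2 libraries of the highest RNR1 (RPMI/B27 replicates 3 and 4), and 2, 11, 11, 8 and 10 when mitochondrial and abundant noncoding RNA were left out of the total. For RPMI/B27 against Day 16, the balance of calls turned from lower to higher after rescaling (2 higher, 1 lower), with RNR1 added (2 and 1) and by limma-voom (4 and 0). On TPM as deposited they were 2, 5, 6, 7 and 6 with RNR1 as a covariate, 2, 6, 7, 4 and 5 without those 2 libraries, and 0, 5, 7, 1 and 1 with only the 2 groups compared in the fit. HPLM/B27 against RPMI_glcM/B27 gave 0 throughout. Leaving out 1 library gave 2 to 7, 3 to 5, 2 to 4, 3 to 5 and 1 to 5. The extremes were 6 and 7 without RPMI/B27 replicate 1 or 2, 2 without Day 16 replicate 1 or 2 for HPLM/B27, and 1 without HPLM/B27 replicate 2, 3 or 4 or 5 without RPMI/B27 replicate 1 for HPLM/B27 against RPMI/B27. The cause of these differences was not tested. By limma-voom, 12, 24, 24, 12 and 17 of the 35 members had an unadjusted p under 0.05 in the first 5 comparisons. Beside these, 34.0, 40.1, 39.6, 27.4 and 29.7% of all genes did. Shares of all genes on rescaled TPM stand with each comparison above. No such share is given for the other alternatives, so their counts stand without a background.

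The members' median minus that of all genes was 0.14, 0.35, 0.37, 0.22 and 0.26 as reported. It was -0.02 (RNR1 covariate), -0.00539 (rescaled with RNR1) and -0.00235 (all genes above 0) for RPMI/B27 against Day 16, 0.23 and 0.22 with all genes above 0 in the comparisons of RPMI_glcM/B27 and HPLM/B27 with Day 16, 0.34 and 0.37 without the 2 libraries (deposited and rescaled) for RPMI_glcM/B27 against RPMI/B27, and 0.38 and 0.40 (rescaled with RNR1, and rescaled without the 2 libraries) for HPLM/B27 against RPMI/B27. Signs turned for NDUFA4 (-0.02 to 0.24 or 0.25) and NDUFS1 (-0.05 to 0.21 or 0.22) in RPMI_glcM/B27 against Day 16, and for NDUFS3 (-0.03 to 0.30 or 0.31) in HPLM/B27 against Day 16, all under rescaling or limma-voom. Of the other results of named members, 1607 kept direction and call, 105 gained a call, 52 lost it and 145 moved in value.

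Replicate numbers are shared among groups. Same-numbered libraries correlated by -0.07 to 0.21, and those of unlike number by -0.31 to 0.16. Libraries were closest to their own number in 0 to 2 of 4 cases. RNR1 was above 1000 TPM in replicate 4 of every group and in replicate 2 of none. These values do not settle whether the numbers pair the wells. The replicate block gave 5, 6, 4, 5 and 4 calls and 0 for HPLM/B27 against RPMI_glcM/B27.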

Other observations

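NDUFA4L2, a relative of NDUFA4 outside the 37 genes, was at 0 to 1.71 TPM over the 16 libraries, on 51 reads in all.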
